A study of Mus musculus with 27 samples.

Results

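Amacrine cells are the inhibitory interneurons of the inner retina, and 9 genes used to recognise them were followed here across retinas of 4 genotypes. The genes were Gad1, Gad2, Slc32a1, Pax6, Tfap2a, Tfap2b, Calb2, Chat and Th. They were taken by symbol from a table of 55487 genes. Each of the 9 matched once, and 9 of 9 passed the filter on low counts, among 17409 genes tested. RNA came from whole retinas of mice aged 9 months and was sequenced from the 3′ end of its transcripts. The wildtype group (Gne+/+ C3+/+) held 7 libraries, 5 in sequencing run 1 and 2 in run 2. The Gne+/- group (C3+/+) held 7, with 5 and 2 in the runs. The C3-/- group (Gne+/+) held 7, with 4 and 3. The Gne+/- C3-/- group held 6, with 4 and 2. The product of Gne catalyses the first steps of sialic acid production, and C3 is the protein on which the complement pathways meet. The labels give a separate mouse for each library. They do not state the strain or how the alleles were made.

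Most amacrine cells release GABA or glycine onto bipolar cells, ganglion cells and other amacrine cells. GABA is made from glutamate by the enzymes encoded by Gad1 and Gad2 and is loaded into vesicles by the transporter encoded by Slc32a1. Slc32a1 also loads glycine. The transcription factor Pax6 and the AP-2 factors Tfap2a and Tfap2b act in amacrine cell formation and stay on in the adult cells. Smaller classes are told apart by other genes: Chat marks the starburst cells, which also release acetylcholine, Th the dopamine cells, and Calb2, which encodes the calcium-binding protein calretinin, several amacrine types and some ganglion cells. The 9 genes are not exclusive to amacrine cells: horizontal cells make some of them, Slc32a1 included, and ganglion cells share Pax6 and Calb2. In a whole retina, fewer cells of a type and less RNA per cell cannot be told apart.

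Gad1 and Gad2 are paralogs, and so are Tfap2a and Tfap2b, so their coding sequences are shown to let a reader see how far reads of one could be taken for the other. The stretches below come from the GENCODE M21 transcripts of GRCm38, with the longest run of bases shared by the pair in capitals. For Gad1 (coding bases 1144 to 1280) and Gad2 (1120 to 1256), it holds the codon of the lysine that binds the cofactor pyridoxal phosphate.
Gad1: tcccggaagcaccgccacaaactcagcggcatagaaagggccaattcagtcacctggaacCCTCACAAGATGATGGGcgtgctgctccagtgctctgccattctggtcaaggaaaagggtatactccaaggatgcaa
Gad2: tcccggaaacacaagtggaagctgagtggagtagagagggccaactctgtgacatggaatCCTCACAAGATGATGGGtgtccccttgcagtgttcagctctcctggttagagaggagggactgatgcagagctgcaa
Tfap2a: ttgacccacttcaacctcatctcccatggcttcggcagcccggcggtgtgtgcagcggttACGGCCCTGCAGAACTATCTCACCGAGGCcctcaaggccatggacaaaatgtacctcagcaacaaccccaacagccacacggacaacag
Tfap2b: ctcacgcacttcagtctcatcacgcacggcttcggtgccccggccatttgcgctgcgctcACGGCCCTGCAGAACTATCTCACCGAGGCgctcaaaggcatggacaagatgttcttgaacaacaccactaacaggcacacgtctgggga

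The Gad1 and Gad2 coding sequences were 66.2% identical over 1746 aligned bases, and their longest shared run was 17 bases, also when whole transcripts were searched. Tfap2a and Tfap2b were 69.4% identical over 1329 aligned bases, with a longest shared run of 29 bases. The length of the reads is not given in the sources used here.

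Counting reads where annotated genes overlap was the other limit, since such reads were left out. Of the gene spans on GRCm38, other genes covered 21.02% of Gad1 (chromosome 2, 70553072 to 70602014), 18.29% of Slc32a1 (chromosome 2, 158610767 to 158615748) and 45.52% of Tfap2a (chromosome 13, 40715302 to 40738376). The share was 5.816% for Chat (chromosome 14, 32408203 to 32465989) and 5.027% for Pax6 (chromosome 2, 105668900 to 105697364). It was 0.2274% for Gad2 (chromosome 2, 22622205 to 22693874) and 0 for Tfap2b (chromosome 1, 19208914 to 19238576), Calb2 (chromosome 8, 110137502 to 110168210) and Th (chromosome 7, 142892752 to 142931128). The last 1000 bases, which a 3′ library reads most, were free of other genes in all 9.

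Because AP-2 factors are among the genes, the 250 bases before the start sites were searched for the AP-2 consensus GCCNNNGGC, which reads the same on both strands, and for the cAMP response element TGACGTCA, also the same on both strands. RefSeq promoters (GRCm38.p6) were given for 8 of the 9 genes, Calb2 being the exception, with 10 entries in all, since Pax6 and Tfap2a have 2 each. The AP-2 consensus stood in 2 of the 10 entries, those of Gad2 and of 1 Pax6 start, and in 13.7% of 32851 promoters of that length. The response element also stood in 2 of the 10, those of Th and of the same Pax6 start, and in 1.55% of all promoters. The second Pax6 entry, at chr2:105682213-105682462, held neither. These matches describe letters only and do not show binding. The promoters of the enzyme pair and the first of Pax6 are shown with matches in capitals, all on the plus strand, for Gad1 at chr2:70561879-70562128, for Gad2 at chr2:22622077-22622326 and for Pax6 at chr2:105668646-105668895.
Gad1: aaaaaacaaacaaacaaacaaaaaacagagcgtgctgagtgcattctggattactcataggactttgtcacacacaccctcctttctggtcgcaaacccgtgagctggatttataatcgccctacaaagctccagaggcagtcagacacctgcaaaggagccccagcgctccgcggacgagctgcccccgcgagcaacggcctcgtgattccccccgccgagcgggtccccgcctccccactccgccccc
Gad2: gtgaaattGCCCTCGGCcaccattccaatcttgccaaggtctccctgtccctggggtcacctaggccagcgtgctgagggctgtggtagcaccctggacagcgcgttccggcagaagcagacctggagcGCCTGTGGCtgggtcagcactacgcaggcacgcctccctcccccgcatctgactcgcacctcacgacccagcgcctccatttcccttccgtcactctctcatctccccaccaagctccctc
Pax6: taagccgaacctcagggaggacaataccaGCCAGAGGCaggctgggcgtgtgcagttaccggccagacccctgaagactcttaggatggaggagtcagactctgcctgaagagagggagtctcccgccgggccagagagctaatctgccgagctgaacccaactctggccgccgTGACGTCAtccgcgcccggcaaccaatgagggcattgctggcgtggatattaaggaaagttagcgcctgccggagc

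Total counts ranged from 13.53 M to 34.17 M per library. Levels are in CPM, the counts-per-million scale, with totals of counted reads in the tested genes scaled between libraries by TMM. Gne read 99.2 to 162 CPM in the Gne+/+ C3+/+ libraries of run 1 and 33.9 to 56.7 CPM in the Gne+/- libraries of that run. In run 2 the same groups read 47 to 55.5 CPM and 13 to 16.4 CPM. C3 stayed at or under 3.6 CPM in every C3-/- and Gne+/- C3-/- library and at or above 53.9 CPM in every other library. Genes of the Y chromosome, averaged over 4 genes, exceeded 10 CPM in 0 of 5 wildtype, 2 of 5 Gne+/-, 4 of 4 C3-/- and 2 of 4 Gne+/- C3-/- libraries of run 1. In run 2 the counts were 2 of 2, 2 of 2, 0 of 3 and 2 of 2. Between C3-/- and wildtype, sex thus differed in opposite ways in the 2 runs, and so it did between Gne+/- C3-/- and C3-/-. In run 2 the C3-/- group differed from every other group in sex as well as genotype, so the 2 cannot be told apart there. The part of sex in the results was not tested. The summed CPM of the 9 amacrine genes ran from 1189 to 1579 in run 1 and from 814 to 925 in run 2, and none of the 9 was at 0 in any library. The summed CPM of 23 other amacrine genes was also higher in every run 1 library (1764 to 2131) than in any run 2 library (1249 to 1520). This was not particular to amacrine genes. The sums of 9 ganglion cell genes (624 to 1159 against 294 to 381) and 6 rod genes (37175 to 68122 against 22234 to 29444) separated likewise. Those of horizontal cell, Mueller glia and bipolar cell genes overlapped between the runs. Nefl among the ganglion cell genes and Pcp2 among the bipolar cell genes were listed at 0 in all libraries.

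No genotype comparison moved any of the 9 genes past the threshold. In edgeR's quasi-likelihood test, with p-values adjusted over all genes by Benjamini and Hochberg and a threshold of 0.05, 0 of 9 passed for Gne+/- against wildtype, where 0.00574% of all genes did. The count was 0 of 9 for Gne+/- C3-/- against C3-/- (0.00574% of all genes), for the difference of these effects (0%) and for C3-/- against wildtype (0.167%). The joint test for any difference among the genotypes also called 0 of 9, against 0.35% of all genes. DESeq2 called 0 of 9 in each of these tests. At an unadjusted p under 0.05, edgeR's test took 1 of 9 for Gne+/- against wildtype (5.76% of all genes), namely Gad2, and 1 of 9 for C3-/- against wildtype (4.49%), namely Tfap2a. It took 0 of 9 for Gne+/- C3-/- against C3-/- (1.35%), for the difference of effects (3.18%) and for the joint test (4.92%), and DESeq2 gave the same numbers for the 9 genes. The median log2 fold change of the 9 was -0.045 for Gne+/- against wildtype, -0.011 for Gne+/- C3-/- against C3-/-, -0.028 for the difference and 0.021 for C3-/- against wildtype. Over all tested genes the medians were 0.0051, -0.0052, -0.0071 and -0.0055. The runs were far apart: 7 of 9 genes differed between them, 3 higher and 4 lower in run 2, where 59.5% of all genes did. At an unadjusted p under 0.05 the count was also 7 of 9, against 63% of all genes. Each gene is therefore described within its run. In run 1, groups did not overlap for 0 of 9 members in Gne+/- against wildtype (0.592% of all genes), in Gne+/- C3-/- against C3-/- (2.11%) and in C3-/- against wildtype (2.18%). In run 2, with 2 or 3 libraries in a group, 5 of 9 did not overlap in the first (31%), 4 of 9 in the second (23.4%) and 3 of 9 in the third (21.1%). A gap in the same direction in both runs was found for 0 of 9 members, against 0.0689%, 0.253% and 0.511% of all genes.

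**Figure D1:**
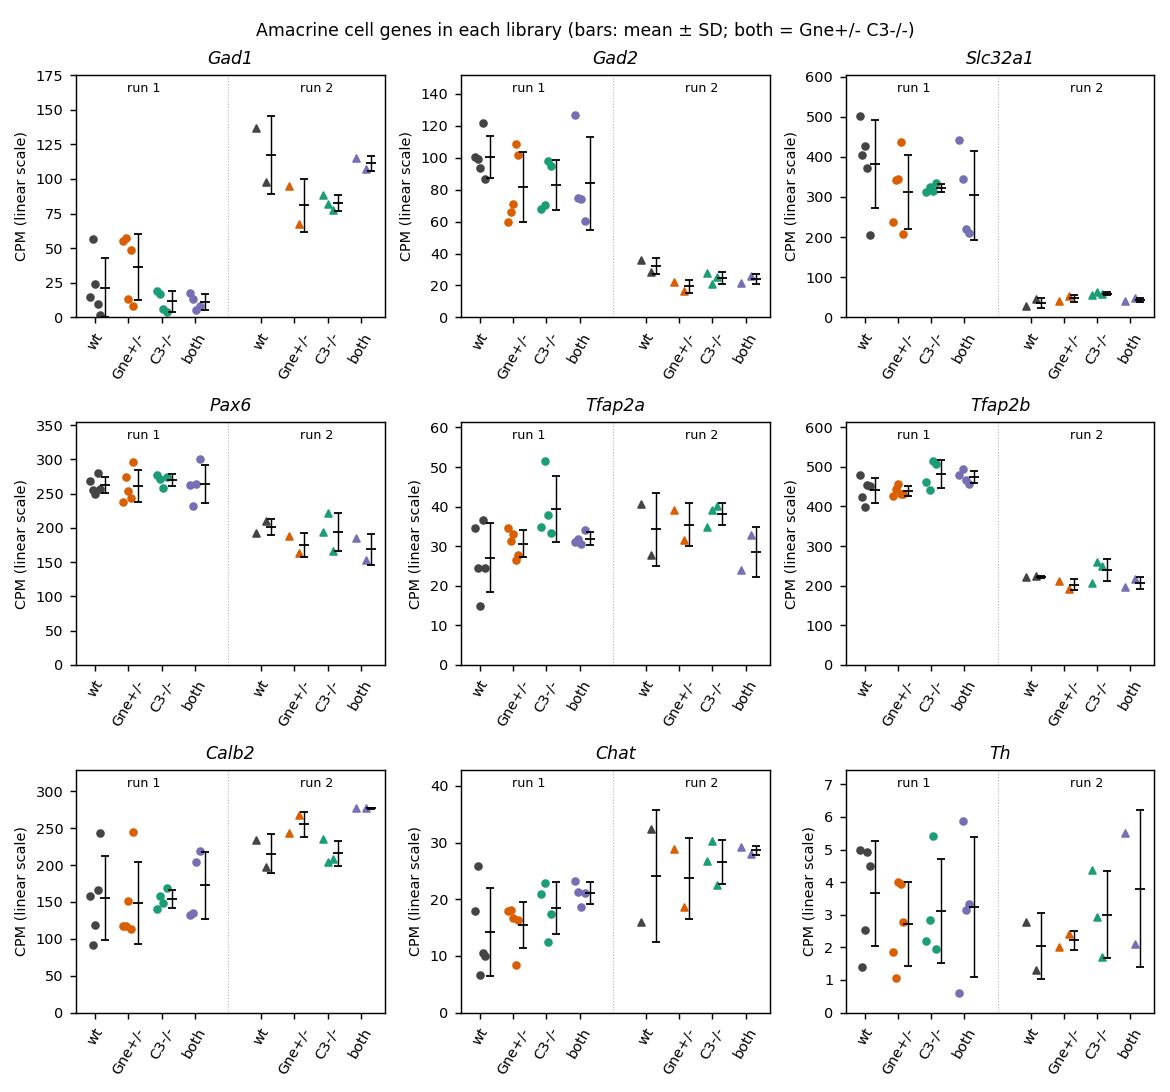
CPM (linear axes from 0) of the 9 amacrine genes in each of the 27 libraries, by genotype, with run 1 as circles on the left and run 2 as triangles on the right of each panel; black marks give the mean and SD of each group. In run 1 the groups of each pair tested (Gne+/- and wildtype, Gne+/- C3-/- and C3-/-, C3-/- and wildtype) overlap in every panel, and the runs do not overlap for Gad1, Gad2, Slc32a1, Pax6 and Tfap2b.

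Gad1 encodes the form of glutamate decarboxylase that supplies GABA through the whole cell. It had the highest coefficient of variation of the 9 in run 1. In run 1 the wildtype libraries held 14.4, 56.9, 23.8, 9.88 and 1.87 CPM of Gad1, and the Gne+/- libraries held 55.4, 57.3, 13.4, 48.9 and 8.28 CPM. The C3-/- libraries held 18.9, 17.0, 6.15 and 4.28 CPM, and the Gne+/- C3-/- libraries 18, 13.4, 5.42 and 7.90 CPM. In every genotype of run 1 the libraries spread widely, and the groups overlapped. All 18 libraries of run 1 lay under all 9 of run 2, where wildtype read 137.0 and 97.5 CPM, Gne+/- 94.6 and 67.5, C3-/- 88.7, 81.5 and 77.3, and Gne+/- C3-/- 115 and 107. The highest library of run 1 exceeded the lowest 30.6-fold, on 33 counts at the lowest, and the coefficient of variation was 91.1%, against 22.04% in run 2, where Th had the highest, 48.07%.

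With run in the model, the log2 fold change of Gad1 was 0.51 (SE 0.55) for Gne+/- against wildtype, with an edgeR adjusted p of 0.931. Its 95% interval ran from 0.643-fold to 3.16-fold, so a doubling lay inside it. Run 1 alone gave 0.80 and run 2 alone -0.52, so the direction of the Gad1 difference was not shared by the runs. For C3-/- against wildtype the log2 fold change of Gad1 was -0.72 (SE 0.56, adjusted p = 0.999 in edgeR), with -0.90 in run 1 and -0.50 in run 2. Leaving out 1 library at a time gave 0.28 to 1.04 for Gne+/- against wildtype and -0.90 to -0.25 for C3-/- against wildtype, and wildtype mouse 2 of run 1 was the library left out at 1.04 and at -0.25. For Gne+/- C3-/- against C3-/- the log2 fold change of Gad1 was 0.13 (SE 0.58), with -0.041 and 0.43 in the runs. Without the filter on low counts, Gad1 passed edgeR's joint test of genotype at an adjusted p of 6.29e-08. Its SE for Gne+/- against wildtype was then 0.19. None of the pairwise comparisons tested in edgeR passed for it (smallest adjusted p 0.056, for C3-/- against wildtype). The joint test also covers pairs that were not tested singly: Gne+/- with C3-/-, Gne+/- with Gne+/- C3-/-, and Gne+/- C3-/- with wildtype.

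Gad2 encodes the decarboxylase form found mainly at nerve terminals. Its wildtype libraries in run 1 held 100.4, 98.8, 93.5, 122 and 86.6 CPM, and the Gne+/- libraries held 59.9, 66.1, 71.2, 108 and 101 CPM. Of the Gne+/- libraries, 3 lay under every wildtype library and 2 lay among them. In run 2 the Gad2 values were 35.7 and 28.5 CPM in wildtype and 22.5 and 16.6 CPM in Gne+/-, with no overlap. At 2 libraries against 2, 31% of all genes showed such a gap. The log2 fold change for Gne+/- against wildtype was -0.42 (SE 0.16), or 0.750-fold with a 95% interval of 0.597 to 0.940. The unadjusted p was 0.0143, and the edgeR adjusted p over all genes was 0.849, so Gad2 did not pass the threshold. Run 1 alone gave -0.28 and run 2 alone -0.70.

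Without C3 the same contrast was small for Gad2. The C3-/- libraries held 67.9, 70.5, 98.1 and 94.9 CPM in run 1 and the Gne+/- C3-/- libraries 127, 74.6, 74.0 and 60.4 CPM. In run 2 the values were 27.9, 20.8 and 25.6 CPM against 21.6 and 26.1 CPM. The groups overlapped in both runs. The log2 fold change was -0.011 (SE 0.17; 0.783-fold to 1.26-fold). The difference between the Gne effects without and with C3 was 0.40 (SE 0.23), with an unadjusted p of 0.0899 and an edgeR adjusted p of 1.00, so a dependence on C3 was not shown. C3-/- against wildtype gave -0.30 (SE 0.16, edgeR adjusted p = 0.999), and this comparison shares its wildtype libraries with the Gne comparison.

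The enzyme pair traded places between the runs. Gad1 was higher in run 2 by a log2 fold change of 2.52 (SE 0.43), with an edgeR adjusted p of 1.80e-05, and Gad2 was lower by -1.81 (SE 0.14; adjusted p = 1.42e-13 in edgeR). Median Gad1 went from 13.9 CPM in run 1 to 94.6 CPM in run 2, and median Gad2 from 90.03 to 25.6 CPM. Gad1 made up 18.1% ± 13.9 (SD, n = 18) of the Gad1 plus Gad2 counts in run 1 and 79.2% ± 2.74 (SD, n = 9) in run 2. In run 1 that share ran from 2.12% to 48.1%, and in run 2 from 75.1% to 84.2%. The summed CPM of the pair was 108.7 ± 26.2 (SD, n = 18) in run 1 and 121.3 ± 25.4 (SD, n = 9) in run 2, with overlapping ranges of 68.3 to 157 and 84.1 to 173 CPM. The share and the sum were chosen after the values were seen and are given with no test. The labels name the runs but not what else differed between them, so mouse cohort, library preparation and sequencing cannot be told apart.

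**Figure D2:**
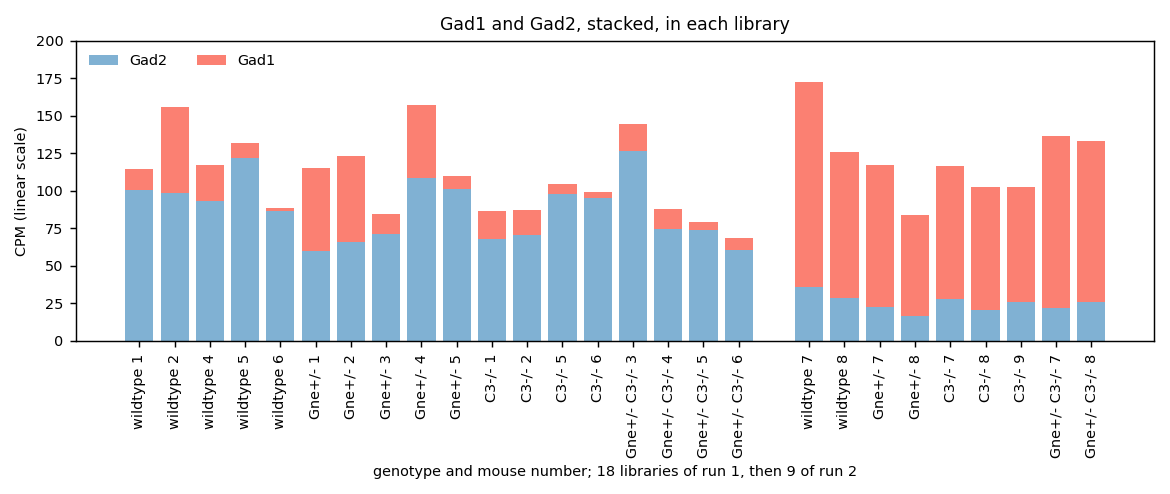
Gad2 (blue) and Gad1 (red) in CPM, stacked on a linear axis from 0, with 1 bar for each library named by genotype and mouse number. Gad2 makes up most of the bar in all 18 libraries of run 1 and Gad1 in all 9 of run 2, while the heights overlap.

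Slc32a1, the vesicular transporter of GABA and glycine, showed the widest fall of the 9 between runs. In run 1 it read 502, 403, 426, 372 and 206 CPM in wildtype and 237, 342, 344, 437 and 207 CPM in Gne+/-. The C3-/- libraries held 312, 326, 316 and 336 CPM and the Gne+/- C3-/- libraries 442, 345, 220 and 209 CPM. The genotypes overlapped, and the C3-/- libraries lay close together in the middle of the range. In run 2 Slc32a1 read 28.2 and 45.6 CPM in wildtype, 41.7 and 54.5 in Gne+/-, 55.1, 62.6 and 58.1 in C3-/-, and 40.9 and 47.6 in Gne+/- C3-/-. The log2 fold change between runs was -2.80 (SE 0.17), with an edgeR adjusted p of 9.73e-15.

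Of the genotype effects on Slc32a1, those of Gne+/- and of C3-/- against wildtype turned direction between the runs, as did the difference of the Gne effects. That difference was -0.11 (SE 0.28), with 0.19 in run 1 and -0.80 in run 2. For Gne+/- against wildtype the log2 fold change was -0.12 (SE 0.19), with -0.26 in run 1 and 0.40 in run 2. For C3-/- against wildtype it was 0.049 (SE 0.20), with -0.25 in run 1 and 0.68 in run 2, where the C3-/- and wildtype libraries did not overlap. Such a gap was found in 21.1% of all genes in that comparison of 3 libraries with 2. For Gne+/- C3-/- against C3-/- the value was -0.23 (SE 0.20), negative in both runs at -0.065 and -0.40. In run 2 the Gne+/- C3-/- libraries lay under the C3-/- libraries, as groups did in either direction for 23.4% of all genes.

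Pax6 and Tfap2b, both transcription factors of amacrine cells, were the steadiest members. Pax6 lay between 233 and 301 CPM in the 18 libraries of run 1, with a coefficient of variation of 6.88%, and between 153 and 222 CPM in run 2. Tfap2b lay between 397 and 515 CPM in run 1, with a coefficient of variation of 6.66%, and between 192 and 260 CPM in run 2. For neither gene did the runs overlap. These are the members for which small genotype effects could best be bounded. For Gne+/- against wildtype, Pax6 was at 0.958-fold with a 95% interval of 0.841 to 1.09, and Tfap2b at 0.969-fold with an interval of 0.863 to 1.09. For Gne+/- C3-/- against C3-/- the intervals were 0.820 to 1.08 for Pax6 and 0.832 to 1.06 for Tfap2b. For C3-/- against wildtype they were 0.890 to 1.16 for Pax6 and 0.974 to 1.23 for Tfap2b. Run 2 was lower by log2 fold changes of -0.52 (SE 0.073) for Pax6 and -1.07 (SE 0.067) for Tfap2b, with edgeR adjusted p-values of 1.93e-07 and 1.46e-15.

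Tfap2a, the other AP-2 factor, read 34.5, 24.5, 15, 36.6 and 24.6 CPM in the wildtype libraries of run 1 and 34.8, 51.5, 37.8 and 33.4 CPM in the C3-/- libraries. In run 2 it read 40.7 and 27.7 CPM in wildtype and 34.9, 39.2 and 40.2 CPM in C3-/-. The groups overlapped in both runs, with 1 C3-/- library of run 1 above all others. The log2 fold change for C3-/- against wildtype was 0.41 (SE 0.17), or 1.33-fold with an interval of 1.04 to 1.69; the unadjusted p was 0.0219 and the edgeR adjusted p 0.929. Run 1 alone gave 0.54 and run 2 alone 0.17. For Gne+/- C3-/- against C3-/- the log2 fold change of Tfap2a was -0.33 (SE 0.18, edgeR adjusted p = 1.00), and for Gne+/- against wildtype 0.14 (SE 0.17). The difference of these effects was -0.47 (SE 0.25), with an unadjusted p of 0.0646. The runs overlapped and the difference between them, 0.087 (SE 0.13), did not pass the threshold (edgeR adjusted p = 0.583).

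Tfap2a and Pax6 are also genes of the lens. The summed CPM of 12 lens genes ran from 130 to 1769 in the Gne+/- libraries of run 1 and from 1.19 to 169 in the wildtype libraries of that run. It was 1.28 to 131 in C3-/- and 3.79 to 166 in Gne+/- C3-/-. In run 2 it was 3.69 to 5.70 in Gne+/-, 4.13 to 10.7 in wildtype, 4.01 to 25.7 in C3-/- and 1.64 to 68.1 in Gne+/- C3-/-. Among the lens genes, Cryba1 was listed at 0 in all libraries. With log2 values centred on the mean of each genotype in each run, the lens sum was compared with both genes over 27 libraries. Pearson r was -0.095 with Tfap2a (permutation adjusted p = 0.939) and 0.274 with Pax6 (permutation adjusted p = 0.830). Beyond this relation, the part of lens RNA in the Tfap2a and Pax6 values was not tested.

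**Figure D3:**
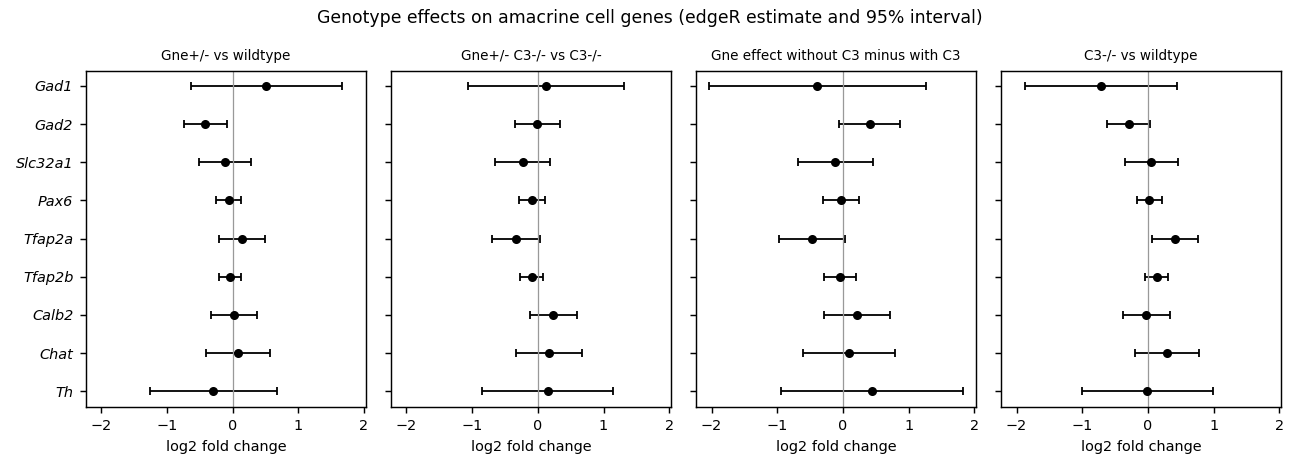
Log2 fold changes of the 9 amacrine genes from the edgeR model with run as a term, in 4 panels for 4 comparisons, with bars for the 95% interval and a grey line at 0. The intervals exclude 0 for Gad2 in Gne+/- against wildtype and for Tfap2a in C3-/- against wildtype before adjustment, and they are widest for Gad1 and Th.

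Calb2 ranged from 92.2 to 245 CPM in run 1 and from 197 to 277 CPM in run 2. Run 2 was higher by a log2 fold change of 0.60 (SE 0.13; adjusted p = 0.000144 in edgeR), with 3 of its 9 libraries above all of run 1. In run 1 the wildtype libraries held 158, 92.2, 118, 166 and 243 CPM and the Gne+/- libraries 117, 118, 151, 113 and 245 CPM. The C3-/- libraries held 141, 158, 149 and 169 CPM and the Gne+/- C3-/- libraries 132, 134, 204 and 220 CPM. A high library stood in wildtype and another in Gne+/-, and the groups overlapped. In run 2, wildtype read 235 and 197 CPM, Gne+/- 243 and 268, C3-/- 236, 205 and 208, and Gne+/- C3-/- 277 in both. Both Gne+/- groups lay above their Gne+/+ partners in run 2. With so few libraries, a gap in either direction was found in 31% of all genes for Gne+/- against wildtype. For Gne+/- C3-/- against C3-/- it was found in 23.4%. The log2 fold changes over both runs were 0.026 (SE 0.17) for Gne+/- against wildtype and 0.24 (SE 0.18) for Gne+/- C3-/- against C3-/-, with edgeR adjusted p-values of 0.991 and 1.00. The first was -0.042 in run 1 and 0.26 in run 2, and the second 0.18 and 0.36.

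Chat, which encodes the acetylcholine-making enzyme of starburst cells, read 6.62 to 25.9 CPM in the wildtype libraries of run 1 and 8.34 to 18.1 CPM in Gne+/-. It read 12.4 to 22.9 CPM in C3-/- and 18.6 to 23.3 CPM in Gne+/- C3-/-. In run 2 all libraries lay between 15.9 and 32.4 CPM. In run 1 the Gne+/- libraries lay under all Gne+/- C3-/- libraries, a pair of groups that was not tested, and the other pairs of genotypes overlapped. That gap was narrow, from 18.1 to 18.6 CPM, and the share of all genes with such a gap was not computed. In run 2 the genotypes overlapped, and 6 of 9 run 2 libraries lay above all of run 1. The log2 fold change between runs was 0.59 (SE 0.18, edgeR adjusted p = 0.00495). Between genotypes it was 0.081 (SE 0.24) for Gne+/- against wildtype, 0.17 (SE 0.25) for Gne+/- C3-/- against C3-/- and 0.29 (SE 0.24) for C3-/- against wildtype. Slc18a3, the vesicular acetylcholine transporter whose gene lies inside Chat, read 0 in every library, and other genes covered 100% of its span, so it gives no second reading of these cells.

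Th, the first enzyme of dopamine synthesis and the marker of the sparse dopamine cells, was the lowest of the 9 in count. Libraries held 10 to 107 Th counts, or 0.606 to 5.87 CPM in run 1 and 1.32 to 5.50 CPM in run 2. The runs and the genotypes overlapped. The log2 fold changes of Th were -0.29 (SE 0.47) for Gne+/- against wildtype, 0.15 (SE 0.49) for Gne+/- C3-/- against C3-/- and -0.0091 (SE 0.49) for C3-/- against wildtype. The intervals ran from 0.418-fold to 1.59-fold, 0.553-fold to 2.22-fold and 0.4998-fold to 1.98-fold, so a halving lay inside the first and the last and just outside the other.

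How the members varied together was read within genotype and run. Log2 CPM was centred on the mean of each genotype in each run, and the 36 pairs were compared over 27 libraries with permutations inside those groups. After adjustment over the 36 pairs, 1 pair passed: Gad1 and Calb2, with Pearson r = -0.873 (permutation p = 6e-05, adjusted p = 0.00216) and Spearman rho = -0.780 (permutation p = 0.00039, adjusted p = 0.0140). Without the 2 libraries farthest from the median, r was -0.787. It was -0.895 in run 1 and 0.362 in the 9 libraries of run 2, so the relation rests on run 1. The share of all gene pairs that would pass the same comparison was not computed. The relation of Gad1 and Calb2 is therefore not shown to be particular to them. Wildtype mouse 2 had 56.9 CPM of Gad1 and 92.2 of Calb2, and wildtype mouse 6 had 1.87 and 243 CPM. Gad1 and Gad2 gave r = -0.049 (permutation p = 0.822, adjusted p = 0.978) and rho = -0.159 (permutation p = 0.505, adjusted p = 0.869).

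**Figure D4:**
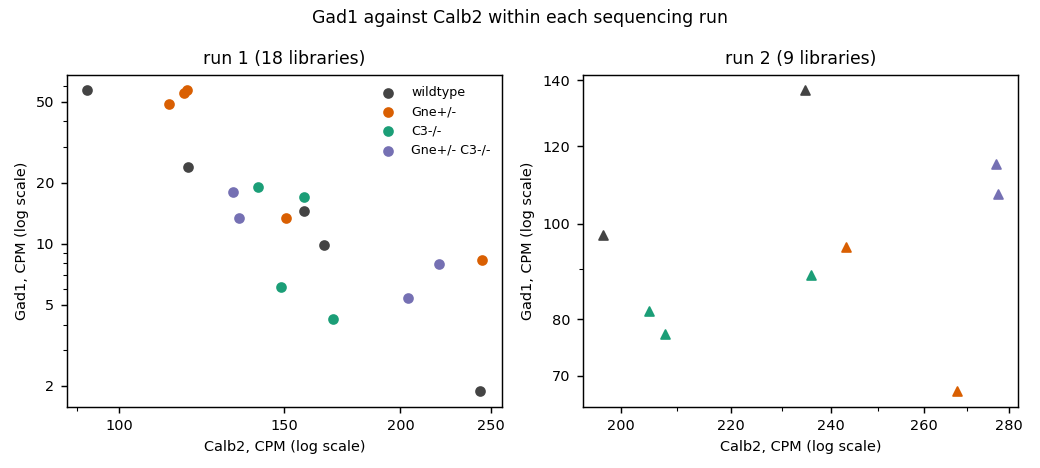
Gad1 against Calb2 in CPM on log axes, 1 point per library, with the 18 libraries of run 1 on the left and the 9 of run 2 on the right, coloured by genotype. In run 1 high Gad1 goes with low Calb2 from 56.9 and 92.2 CPM to 1.87 and 243 CPM, and in run 2 no such slope is seen.

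A sum of rod genes varied with both of these members in run 1. The summed CPM of 6 rod photoreceptor genes was compared with each of the 9, as were lens sum, genes detected and total count. This made 36 relations, with 4 past the threshold after adjustment. The share of all genes that would pass the same comparisons was not computed. The 4 relations are therefore not shown to be particular to these members. The rod sum gave r = -0.892 with Calb2 (permutation p = 4e-05, adjusted p = 0.00144; rho = -0.858, adjusted p = 0.0036), with -0.914 in run 1 and -0.204 in run 2. It gave r = 0.720 with Gad1 (permutation adjusted p = 0.0126; rho = 0.670, adjusted p = 0.0648), with 0.750 in run 1 and -0.667 in run 2. It gave r = 0.748 with Slc32a1 (permutation adjusted p = 0.0380; rho = 0.672, adjusted p = 0.0922), with 0.762 and 0.709 in the runs. The number of genes detected gave r = -0.552 with Gad2 (permutation adjusted p = 0.0380; rho = -0.513, adjusted p = 0.181), with -0.642 and -0.616. Without the 2 libraries farthest from the median, the 4 values of r were -0.902, 0.764, 0.675 and -0.542. Rod genes did not move as 1 block: wildtype mouse 2 had a rod sum of 68122 CPM with 3315 CPM of Gnat1, the rod transducin subunit, and wildtype mouse 6 had 44098 CPM with 9527 CPM. The part of rod RNA in the Gad1, Calb2 and Slc32a1 values was not tested.

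The genes whose centred pattern over the 27 libraries was most like each member were sought among 10352 genes with a mean of at least 5 CPM, and are given as a description. For Gad1 they were Ccnq (r = 0.951) and Zfp46 (r = 0.949), and for Calb2 Gfod1 (r = 0.940) and Gnat1 (r = 0.940). For Slc32a1 they were Kif5a (r = 0.919) and Ubr2 (r = 0.891), and for Gad2 Ankle2 (r = 0.895) and Lysmd2 (r = 0.857). The likeness was lower for the others: Dnah3 (0.813) and Tmem147os (0.750) for Chat, Ptov1 (0.765) and Pdlim7 (0.761) for Th, Foxo3 (0.746) and Dusp22 (0.736) for Pax6. Rnf19a (0.723) and Dclre1b (0.690) came nearest to Tfap2b, and Ndufaf3 (0.713) and Col9a2 (0.693) to Tfap2a. These values of r are over both runs. Within run 1 they ran from 0.613 (Tfap2b with Rnf19a) to 0.970 (Calb2 with Gnat1). Within run 2 they ran from 0.423 (Th with Pdlim7) to 0.905 (Tfap2a with Ndufaf3). No member was among the 2 nearest genes of another. All of these genes share the same libraries and scaling.

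Other genes of amacrine cells and their transmitters were read in 5 lists. Of 21 tested genes of other amacrine subtypes and factors, 0 passed in any genotype comparison. The smallest p in the joint test belonged to Slc17a8, the glutamate transporter of an amacrine type that also releases glutamate. Slc17a8 read 25.0 to 37.7 CPM in wildtype and 18.2 to 26.4 CPM in Gne+/- in run 1, and 12.5 to 14.1 against 7.20 to 7.66 CPM in run 2. Its log2 fold change for Gne+/- against wildtype was -0.49 (SE 0.17), with an unadjusted p of 0.00711 and an edgeR adjusted p of 0.849. Without C3 the same contrast of Slc17a8 was 0.041 (SE 0.18), and the difference of the effects was 0.53 (SE 0.25), with an unadjusted p of 0.0380 and an edgeR adjusted p of 1.00. The second, Meis2, a transcription factor gene, had a log2 fold change of -0.22 (SE 0.10) in that comparison. Slc6a9, the glycine transporter of glycine-releasing amacrine cells, could not be read, since other genes covered 98.1% of its span and 2 libraries held any count.

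Of 8 genes of GABA uptake, breakdown and rho receptors, 0 passed in any genotype comparison. Gabrr1, a rho subunit of the GABA receptor found on bipolar cells, came nearest, with a log2 fold change of 0.63 (SE 0.35) for C3-/- against wildtype. Abat, the enzyme that breaks GABA down, was at -0.45 (SE 0.34) there. Of 11 tested acetylcholine genes 0 passed, with Chrna7, a nicotinic receptor subunit, at -0.38 (SE 0.23) for Gne+/- against wildtype and Slc5a7, the choline transporter, at 0.074 (SE 0.32). Of 11 neuropeptide genes 0 passed. Vip, made by a class of amacrine cells, had the smallest p of the peptides in the joint test, 0.00668 unadjusted and 0.559 adjusted in edgeR. Its log2 fold change was -0.52 (SE 0.27) for Gne+/- against wildtype and 0.53 (SE 0.27) for C3-/- against wildtype. Penk, the enkephalin precursor, was at -1.13 (SE 0.52) for C3-/- against wildtype, with an edgeR adjusted p of 0.999.

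Of the dopamine genes, Gch1, which acts in the synthesis of the cofactor of Th, was at 1.78 (SE 0.91) for Gne+/- against wildtype, with an edgeR adjusted p of 0.860. Slc6a3, the dopamine transporter, did not pass the filter, with at most 1.23 CPM.

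The lists also split between the runs. Between run 2 and run 1, 11 of 21 genes of other amacrine subtypes passed (2 higher and 9 lower), as did 6 of 8 GABA genes (4 and 2), 8 of 11 acetylcholine genes (5 and 3), 7 of 13 dopamine genes (3 and 4) and 7 of 11 neuropeptide genes (1 and 6). The share over all genes was 59.5%, with 5272 higher and 5082 lower. Vip was lower in run 2 by a log2 fold change of -2.69 (SE 0.24; adjusted p = 1.01e-11 in edgeR) and Gabrr1 higher by 2.11 (SE 0.25; adjusted p = 1.68e-08 in edgeR).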

How the data were processed

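The authors deposited raw counts per gene, made from 3′ libraries (QuantSeq, 100 ng of total RNA, per the labels' protocols). Per the submitters' processing notes, STAR 2.7.3a did the alignment to GRCm38 and featureCounts (Subread 2.0.0) the counting. Per the file headers, the counting version was 2.0.3 with Ensembl release 101, over exon and gene features, so intronic reads count, and no strand or overlap option was set.

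Counts were tested with edgeR 4.0.16 in R 4.3.3: filterByExpr (minimum count 10), TMM scaling, and a robust quasi-likelihood test with genotype and run as terms, over 27 libraries with 22 residual degrees of freedom. Adjustment followed Benjamini and Hochberg over 17409 genes, with a threshold of 0.05. SEs came from the F statistic. CPM uses TMM-scaled totals, and log2 CPM a prior count of 2. Correlations used 100000 permutations within genotype and run. The total count per library was 13.53 M to 34.17 M, and no library was an exact duplicate. The test was also run on simulated data, and the shares of changes it recovered there are not given here. Alternatives were DESeq2 1.42.0, its size factors as RLE scaling in edgeR, no low-count filter, each run alone, the mouse number as a block, and each library left out.

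The 9 genes and the lists were chosen with earlier results of these data known. Named genes are all 9, every listed gene past the threshold between genotypes, the 2 of each list with the smallest p in the joint test, and the 2 nearest patterns of each member with an official symbol. A gene that this rule takes is not reported here.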

Additional observations from a re-analysis of the deposited data

Results flagged for a closer look

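Of 40 groups of 4 or 5 libraries checked for a library far from the others, 2 held one, where chance flags about 1 in 20. Calb2 stood at 245 CPM in Gne+/- mouse 5 of run 1, far above the next library of that group at 151 CPM. Chat stood at 8.34 CPM in Gne+/- mouse 4 of run 1, far below the next at 16.3 CPM. The same 2 libraries had 8.28 and 48.9 CPM of Gad1, and their lens gene sums were 211 and 1769 CPM.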

How the results depend on the processing

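Over 1188 refits of the 36 genotype effects of single members, 0 passed the threshold (lowest adjusted p 0.0561), and 59 turned direction, all among 18 effects with main log2 fold changes of at most 0.513 in size. DESeq2, RLE scaling and the fit without the low-count filter turned 0 of 36 each. Run 2 alone turned Gne+/- against wildtype for Gad1 (-0.52), Slc32a1 (0.40), Chat (-0.015) and Th (0.13), C3-/- against wildtype for Pax6 (-0.042), Calb2 (0.013) and Th (0.56), and the difference of Gne effects for Gad1 (0.95). Run 1 alone turned Gne+/- against wildtype for Pax6 (0.019), Tfap2b (0.019) and Calb2 (-0.042), Gne+/- C3-/- against C3-/- for Gad1 (-0.041) and Gad2 (0.038), the difference for Slc32a1 (0.19) and C3-/- against wildtype for Slc32a1 (-0.25). Leaving out 1 library at a time gave ranges that crossed 0 for Gne+/- against wildtype in Calb2 (-0.13 to 0.18) and Chat (-0.047 to 0.28), and for Gne+/- C3-/- against C3-/- in Gad1 (-0.026 to 0.29), Gad2 (-0.17 to 0.068) and Th (-0.15 to 0.37). The ranges also crossed 0 for the difference in Slc32a1 (-0.24 to 0.017), Pax6 (-0.076 to 0.022) and Chat (-0.10 to 0.22), and for C3-/- against wildtype in Slc32a1 (-0.085 to 0.16), Pax6 (-0.017 to 0.055), Calb2 (-0.11 to 0.13) and Th (-0.22 to 0.11). The count of members called between runs was 7 in every leave-one-out fit. Over all genes, the count for Gne+/- against wildtype was 1 to 2 with 1 library left out (2 without Gne+/- mouse 5), 8 in DESeq2 and 72 without the low-count filter. Without that filter it was 9 for Gne+/- C3-/- against C3-/-, 30 for the difference, 91 for C3-/- against wildtype and 498 in the joint test, where 1 member, Gad1, passed. DESeq2 gave 63 for C3-/- against wildtype and 113 in the joint test. Run 2 alone gave 5 for Gne+/- C3-/- against C3-/-, 4 for the difference and 26 in the joint test. The cause was not tested. Th was read from 10 to 107 counts per library.

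The mouse number used as a replicate block in place of run turned Th in Gne+/- C3-/- against C3-/- (-0.23) and in C3-/- against wildtype (0.19) and the difference of Gne effects in Gad1 (0.13), and called 0 of 9 members between genotypes. Over all genes the block gave 1 call for Gne+/- against wildtype, 1 for Gne+/- C3-/- against C3-/-, 23 for C3-/- against wildtype and 57 in the joint test. Same-numbered mice of Gne+/- and wildtype correlated at -0.0578 to 0.189 over genes (6 pairs), and mice with other numbers at -0.338 to 0.277 (23 pairs). The ranges overlapped, and so few pairs cannot decide whether the numbers pair the mice.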
